A study of Homo sapiens with 3 samples.

Results

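Clusters of DICER-crosslinked reads that lay on tRNA-like repeats outside annotated tRNA genes numbered 152 of 11577 in replicate 1, 147 of 18065 in replicate 2 and 82 of 5099 in replicate 3. They numbered 124 of the 8469 clusters in a series-wide list. A cluster was taken when its annotation named a RepeatMasker repeat of the tRNA class on its own strand and no tRNA gene there, and when it lay off the mitochondrial chromosome. No measured value entered that choice. Merged by overlap on 1 strand, the clusters of the 3 replicates formed 199 loci.

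DICER, an RNase III enzyme, makes mature microRNAs from precursor hairpins and cuts long double-stranded RNA into small interfering RNAs. A tRNA is transcribed by RNA polymerase III from promoter elements inside the gene, folds into a cloverleaf and carries heavily modified bases. Copies of tRNA sequence are scattered through mammalian genomes, many of them decayed or inserted by retrotransposition, and RepeatMasker names each after the amino acid and codon of the tRNA it resembles, with Y for either pyrimidine. Most are not known to make a tRNA that works in translation.

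The study crosslinked FLAG-tagged DICER to RNA in HEK293 cells, a human embryonic kidney line, in its Flp-In T-Rex form, which takes up a transgene at a fixed site and can place it under tetracycline control. In photoactivatable-ribonucleoside-enhanced crosslinking and immunoprecipitation (PAR-CLIP), a crosslinked 4-thiouridine is read as C in place of T, so T-to-C conversions mark crosslinked positions. The RNA was trimmed with RNase T1, which cuts after G. All 3 replicates carried the same transgene and belonged to 1 group, and no library without the tagged protein was used here, so a level of conversions at a locus mixes binding by DICER with the amount of the RNA.

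The 4 lists held between 595487 conversions in replicate 3 and 2298766 in the series-wide list. Such totals cover the clusters listed, so they do not give the depth of sequencing. The replicate lists differed in make-up: both sequencing runs of a replicate supplied reads to 51.5%, 92.1% and 99.5% of all clusters in replicates 1, 2 and 3. Among the tRNA-like repeats the same shares were 83.6%, 81.0% and 87.8%, above the whole list in replicate 1 and below it in replicates 2 and 3. Nuclear tRNA genes, the class most like these repeats, gave 418, 385 and 262 clusters.

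The tRNA-like repeats held few clusters and a share of the signal that differed widely between replicates. They made up 1.31%, 0.814% and 1.61% of clusters in replicates 1, 2 and 3 (mean 1.24% ± 0.402, SD, n = 3). They carried 17111, 216567 and 94841 conversions, which was 1.31%, 20.4% and 15.9% of each list (12.6% ± 9.99, SD, n = 3). Replicate 1 stood far below the other replicates in this share. Counted by distinct reads, the repeats held 4.15%, 4.90% and 6.84% (5.30% ± 1.39, SD, n = 3), and there the replicates lay close together.

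Most of these conversions lay on a handful of loci. The locus with the most conversions alone held 40.4%, 87.5% and 83.4% of the conversions on tRNA-like repeats in replicates 1, 2 and 3, and the 3 loci highest in each replicate, not the same loci in replicate 1 as in replicates 2 and 3, together held 61.6%, 95.6% and 94.0%. The 3 highest loci of each replicate held 18.3%, 23.3% and 32.7% of the distinct reads on tRNA-like repeats. Without the first locus, the repeats carried 0.781%, 2.56% and 2.65% of each list's conversions. Many of the others were small: the median cluster had 9, 9 and 16 conversions, and 50.7%, 51.7% and 43.9% of clusters had fewer than 10. Small clusters were not particular to the repeats. Outside tRNA genes and the mitochondrial chromosome, the other clusters had medians of 12, 5 and 18 conversions. Of those, 4034 of 10791, 13814 of 17326 and 1244 of 4627 had fewer than 10.

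The locus with the most conversions was a copy of tRNA-Val-GTY in intron 1 of AC073283.4, a noncoding transcript, on its strand (hg19 chr2:47507893-47507935, minus strand), where the annotation also names the LINE repeat L1M4. Its conversions numbered 6913, 189444 and 79062 in replicates 1, 2 and 3. The series-wide list gives it 229016. This was 0.529%, 17.9% and 13.3% of each list's conversions. Replicate 1 was more than 10 times lower in this share than either other replicate. In distinct reads the replicates stood nearer, at 503, 710 and 367, or 0.460%, 0.637% and 1.25% of each list. Reads per distinct read came to 40.7, 556 and 407 in the 3 replicates, against a median of 6.71, 5.14 and 6.62 over the 59 loci found in all 3 replicates. T-to-C changes were 70.1%, 85.4% and 91.0% of all edits at this locus, and conversions per read were 0.338, 0.480 and 0.529.

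A copy of tRNA-Cys-TGY followed the valine copy across replicates. It lay in intron 2 of CPXM2, a member of the carboxypeptidase family (chr10:125664632-125664668, minus strand), and carried 157, 3254 and 1754 conversions in replicates 1, 2 and 3. It too was lowest in replicate 1. Relative to replicate 1, the share of list conversions in replicate 2 was 33.7 times as high at the valine copy and 25.5 times at the cysteine copy. In replicate 3 these ratios were 25.1 and 24.5. In share of distinct reads the ratios were only 1.38 and 1.76 for replicate 2, and 2.71 and 4.18 for replicate 3. Over all 59 loci found in every replicate, the median ratio of conversion shares was 1.36 for replicate 2 and 1.72 for replicate 3, and it passed 10 at 8 and 12 loci. No ratio of distinct-read shares passed 10. The part that repeated sequencing of the same fragments had in these conversion counts was not tested.

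**Figure D1:**
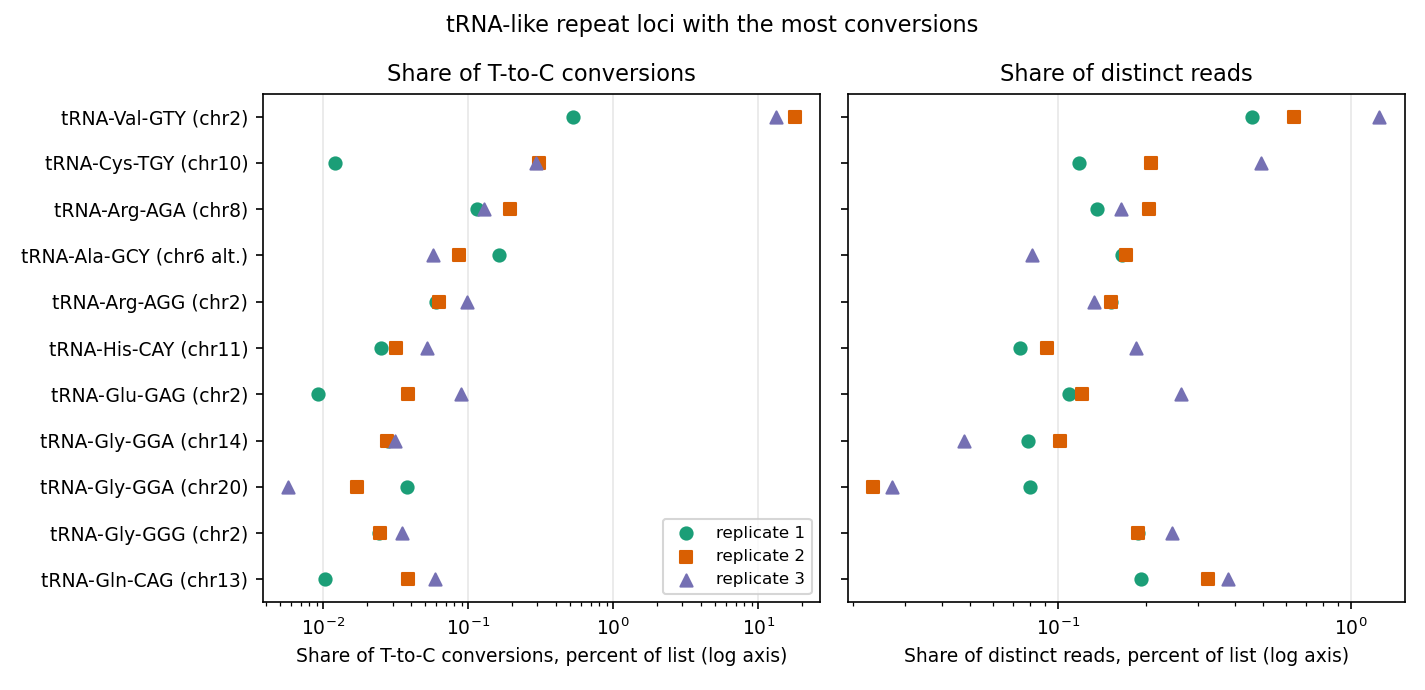
Each row is a tRNA-like repeat locus among the 12 richest in conversions by the series-wide list, and points give its share of all listed T-to-C conversions (left) or of all listed distinct reads (right) in each replicate, in percent on log axes. At the first 2 rows replicate 1 lies far left of replicates 2 and 3 in conversions, and much nearer to them in distinct reads.

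Some other leading loci differed less between replicates, but not all did. As a share of list conversions, the copies in PARD3B and CDK8, described below, were 9.67 and 5.73 times as high in replicate 3 as in replicate 1. A copy of tRNA-Arg-AGA in an intron of an assembled long noncoding transcript on chromosome 8 carried 1496, 2067 and 765 conversions in replicates 1, 2 and 3, or 0.146% ± 0.0429 of the list (SD, n = 3). A copy of tRNA-Arg-AGG antisense to ANKRD44, which encodes an ankyrin-repeat protein, carried 782, 661 and 584 conversions (chr2:198099547-198099581, plus strand). A copy of tRNA-His-CAY outside any gene carried 327, 335 and 311 conversions (chr11:109473923-109473959, plus strand). At the histidine copy the 3 counts lay close together, although the lists differ in total. As a share of each list they were 0.0250%, 0.0316% and 0.0522%. The tRNA-Gly-GGA copy antisense to RP11-72M17.1 carried 362, 289 and 187 conversions (chr14:66708591-66708628, plus strand). The tRNA-Gly-GGG copy outside any gene carried 316, 262 and 208 (chr2:197053936-197053974, minus strand). Replicate 1 had the most conversions at both glycine copies, but as a share of the list replicate 3 was highest, at 0.0314% for the first and 0.0349% for the second copy. A further tRNA-Gly-GGA copy, antisense to C20orf196, differed more, with 495, 180 and 34 conversions (chr20:5749480-5749513, minus strand).

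Another leading locus looked unlike the others. It was a copy of tRNA-Ala-GCY on an alternate haplotype of chromosome 6 (6_cox_hap2:185842-185924, minus strand), outside any gene, with 2133, 910 and 337 conversions in replicates 1, 2 and 3. Its clusters were 83, 80 and 76 nt wide, the widest on any tRNA-like repeat in each replicate. T-to-C changes made up 96.5%, 97.0% and 98.0% of its edits, and conversions per read were 0.889, 0.949 and 0.960. Of the 199 loci, 5 lay on alternate haplotypes of chromosome 6, and no cluster there carried the annotation of a tRNA gene in any of the 4 lists. Whether these copies correspond to annotated genes of the primary chromosome was not tested.

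Several loci with many distinct reads had few conversions per read and a low T-to-C share of edits. The tRNA-Gln-CAG copy in intron 1 of CDK8, the kinase of the Mediator complex, had 209, 361 and 112 distinct reads in replicates 1, 2 and 3 (chr13:26867159-26867201, plus strand). Its conversions numbered 134, 406 and 350, or 0.0559, 0.0808 and 0.165 per read, and T-to-C was 14.0%, 17.2% and 35.7% of edits. The tRNA-Glu-GAG copy in an intron of PARD3B, a cell polarity protein (chr2:206218952-206218995, plus strand), had 119, 134 and 77 distinct reads and 120, 405 and 529 conversions. T-to-C was 9.56%, 15.3% and 26.9% of its edits. A tRNA-Arg-AGG copy on chromosome 8, outside any gene and within the LINE repeat L1PA16, had 184, 261 and 101 distinct reads, 238, 261 and 258 conversions, and a T-to-C share of 19.3%, 9.40% and 9.88%. At these 3 loci most edits in every replicate were of another kind. The cysteine copy in CPXM2 had shares of 37.6%, 63.4% and 80.8%, so replicates could differ widely at 1 locus.

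Across all members, T-to-C changes were a smaller part of the edits on tRNA-like repeats than on tRNA genes in each replicate. The median T-to-C share of edits over clusters was 54.2%, 55.6% and 80.2% on tRNA-like repeats in replicates 1, 2 and 3, against 85.3%, 85.7% and 97.3% on nuclear tRNA genes. The difference was -26.1 ± 7.88 percentage points (SD, n = 3) and negative in each replicate (p = 0.25 in an exact two-sided permutation test that flips signs, adjusted p = 0.25 over 10 tests). With 3 replicates 0.25 is the smallest p this test can give, here and in each such test below, so none can pass 0.05. T-to-C was under 50% of edits in 41.4%, 41.5% and 30.5% of clusters on tRNA-like repeats, against 20.6%, 24.4% and 18.3% on tRNA genes and 4.72%, 1.09% and 0.843% of all other clusters. It was 100% of edits in 17.1%, 21.8% and 25.6% of clusters on the repeats, against 16.99%, 26.5% and 43.1% on tRNA genes. For all other clusters this share was 67.8%, 93.9% and 96.2%. By this measure the repeats were below the tRNA genes in replicates 2 and 3 but not in replicate 1.

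Weighting turned this difference round. Summed over clusters, T-to-C was 53.8%, 72.5% and 78.5% of edits on tRNA-like repeats and 63.6%, 48.3% and 54.4% on tRNA genes, so the repeats were higher in replicates 2 and 3. Without the valine copy the sums on the repeats were 46.5%, 35.3% and 46.6%, below the tRNA genes in all 3 replicates. Among clusters with 10 to 100 distinct reads, the median was 45.1%, 43.3% and 80.7% on the repeats and 82.5%, 83.0% and 76.0% on tRNA genes, so replicate 3 did not share the direction there.

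Conversions per read followed the same order. The median was 0.333, 0.364 and 0.478 on tRNA-like repeats in replicates 1, 2 and 3, against 0.653, 0.667 and 0.783 on tRNA genes. The difference was -0.309 ± 0.00910 (SD, n = 3) and negative in each replicate (exact two-sided sign-flip permutation test, p = 0.25). Its spread between replicates was small beside its size. The highest value in any list was 1, so no cluster on the repeats had more conversions than reads. Summed over clusters, conversions per read were 0.275, 0.407 and 0.454 on the repeats and 0.455, 0.368 and 0.427 on tRNA genes, so here too the order turned in replicates 2 and 3. Without the valine copy the sums on the repeats were 0.244, 0.198 and 0.265, below the tRNA genes in all 3 replicates. Edits other than T-to-C went the opposite way, with a median of 0.215, 0.252 and 0.0865 per read on the repeats and 0.112, 0.0980 and 0.0175 on tRNA genes (difference 0.109 ± 0.0428, SD, n = 3, higher in 3 of 3 replicates). Among clusters with 10 to 100 distinct reads that order did not hold in replicate 3, where the median was 0.0861 on the repeats and 0.133 on tRNA genes. The T-to-C share, conversions per read and other edits per read are built from the same counts, so they are not separate evidence.

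tRNA genes that the annotation itself marks as pseudogenes lay close to the repeats. Their median T-to-C share was 39.9%, 51.5% and 79.4% in replicates 1, 2 and 3, from 26, 23 and 13 clusters. The tRNA-like repeats were 6.41 ± 7.03 percentage points above them (SD, n = 3), higher in each replicate (exact two-sided sign-flip permutation test, p = 0.25). That difference was no larger than its spread between replicates. The pseudogenes in turn were lower than the other tRNA genes in 3 of 3 replicates, whose medians were 86.4%, 87.1% and 97.5%, with a difference of -33.4 ± 14.3 points (SD, n = 3). In conversions per read the pseudogenes had medians of 0.288, 0.280 and 0.510. These comparisons were added after the values had been seen.

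**Figure D2:**
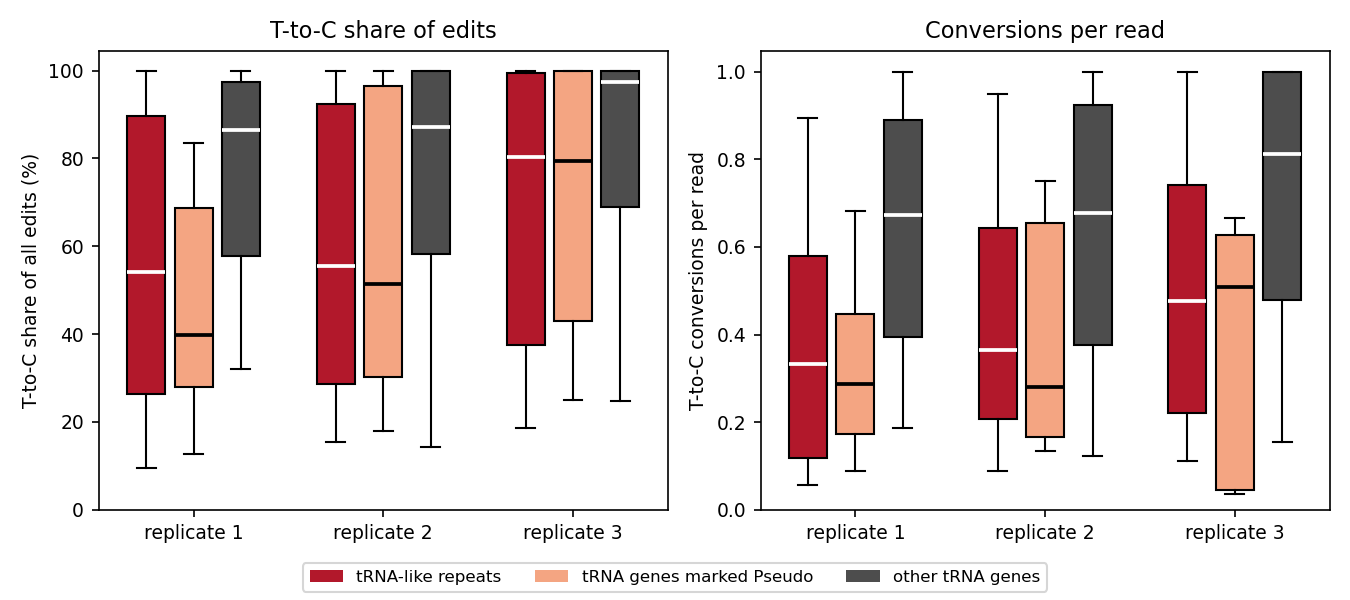
Boxes give the middle 50% of clusters with the median line, and whiskers the 10th and 90th percentiles, of the T-to-C share of edits in percent (left) and of conversions per read (right), for tRNA-like repeats, tRNA genes marked Pseudo and the other tRNA genes in each replicate. The median line of the repeats lies below that of the other tRNA genes in all 3 replicates and near that of the genes marked Pseudo.

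At single loci the T-to-C share was only partly a stable property. Over the 59 loci found in all 3 replicates, the mean share ran between 1.69% and 100%, with a median of 58.9%. It was under 50% at 21 loci and 90% or more at 8. The median SD between replicates was 14.5 percentage points. As a description over the same 59 loci, Pearson's r of this share was 0.658 between replicates 1 and 2, 0.526 between 1 and 3 and 0.717 between 2 and 3. For log2 conversions r was 0.723, 0.674 and 0.928, and for log2 distinct reads 0.854, 0.746 and 0.875. The replicates share the method and the deposited clustering.

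The clusters on the repeats were shorter than those on tRNA genes. Their median width was 32.5, 34 and 33.5 nt in replicates 1, 2 and 3, against 38, 40 and 35 nt on tRNA genes, a difference of -4.33 ± 2.47 nt (SD, n = 3; exact two-sided sign-flip permutation test, p = 0.25). All other clusters were narrower than the repeats in each replicate, with medians of 31, 28 and 27 nt. The middle part of the distribution ran between 29 and 36 nt, 30 and 37 nt, and 30 and 36 nt on the repeats, against 31 and 52, 35 and 56, and 30 and 41 nt on tRNA genes. The longest clusters reached 83, 80 and 76 nt on the repeats, and 132, 126 and 113 nt on tRNA genes. Reads were also less repeated: the median cluster had 3.89, 2.67 and 4.72 reads per distinct read on the repeats, against 6.27, 4.38 and 11.5 on tRNA genes (difference -3.62 ± 2.75, SD, n = 3, negative in 3 of 3 replicates). The median number of distinct reads was 8, 10 and 8 on the repeats and 15, 15 and 8 on tRNA genes, the same in replicate 3.

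The tRNA-like repeats recurred between replicates more often than clusters in general. Of their clusters, 38.8%, 40.1% and 72.0% in replicates 1, 2 and 3 overlapped a cluster of each of the other replicates by at least 1 nt on their strand. Over all clusters of the lists the shares were 11.8%, 7.51% and 27.9%, and over all clusters other than the repeats 11.5%, 7.24% and 27.2%. The difference from these other clusters was 35.0 ± 8.90 percentage points (SD, n = 3), positive in each replicate (exact two-sided sign-flip permutation test, p = 0.25). Nuclear tRNA genes recurred more often still, at 54.1%, 56.6% and 88.2%. All 3 replicates held a cluster at 59 of the 199 loci (29.6%), while 64 (32.2%) had clusters from 2 replicates and 76 (38.2%) from 1. Loci found in all 3 had a median of 75 distinct reads summed over replicates, those in 2 had 12 and those in 1 had 4. A locus found in more replicates adds more clusters to this sum, so part of that rise is built in. Clusters on the repeats had a median of 8, 10 and 8 distinct reads. Other clusters outside tRNA genes and the mitochondrial chromosome had a median of 2 in each replicate. The sets were not matched on read number. With 3 or more distinct reads required, the shares were 41.4%, 43.3% and 83.3% on the repeats and 11.3%, 13.1% and 76.0% over all other clusters. The difference was then 22.5 percentage points on average, positive in each replicate, and only 7.38 points in replicate 3.

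The 199 loci bore 36 repeat names of 19 amino acids. Glycine copies were the most numerous, with 36 loci, of which 25 were tRNA-Gly-GGA. Glutamine followed with 29 loci, 24 of them tRNA-Gln-CAG, then cysteine with 24, all tRNA-Cys-TGY, and glutamate with 18, of which 13 were tRNA-Glu-GAG. Lysine had 16 loci, 12 of them tRNA-Lys-AAG, and arginine had 14, with 5 each of tRNA-Arg-AGA and tRNA-Arg-CGY. Isoleucine had 12 loci, 10 of them tRNA-Ile-ATT, and the 7 histidine loci were all tRNA-His-CAY. Leucine and valine had 7 loci each, led by tRNA-Leu-TTG with 3 and tRNA-Val-GTY with 4. The 5 phenylalanine loci were all tRNA-Phe-TTY, and the 4 tyrosine loci all tRNA-Tyr-TAC. Threonine had 5 loci, 3 of them tRNA-Thr-ACA, alanine had 4, 3 of them tRNA-Ala-GCY, and methionine had 4, 3 named tRNA-Met without a codon.

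Against 59 of all 199 loci (29.6%), the loci found in all 3 replicates numbered 6 of 36 for glycine, 12 of 29 for glutamine, 5 of 24 for cysteine and 6 of 18 for glutamate. They numbered 1 of 16 for lysine, 6 of 14 for arginine, 5 of 12 for isoleucine, and 5 of 7, 3 of 7 and 2 of 7 for histidine, valine and leucine. Threonine had 0 of 5. Differences between families were not tested, and the families are small.

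The families also took other shares of distinct reads than tRNA genes of the same amino acid. Glutamine held 16.6% ± 2.92 of the distinct reads on tRNA-like repeats, against 4.83% ± 0.552 of those on tRNA genes (SD, n = 3 here and in the shares that follow). Glycine held 11.7% ± 3.30 on the repeats and 3.83% ± 1.55 on tRNA genes. Cysteine held 8.90% ± 2.51 and 2.60% ± 0.826 in the same order, and glutamate 8.33% ± 2.19 and 1.76% ± 0.528. In these 4 families the gap was wider than the SD of either set. The order was the opposite for lysine, with 1.29% ± 1.01 on the repeats and 7.82% ± 0.913 on tRNA genes, and for leucine, with 1.09% ± 0.230 on the repeats and 6.30% ± 0.539 on tRNA genes. Proline, with only 2 loci, held 0.136% ± 0.190 on the repeats and 5.17% ± 0.403 on tRNA genes. Valine held 16.3% ± 3.23 on the repeats and 23.3% ± 1.40 on tRNA genes, and arginine 12.1% ± 1.54 and 11.4% ± 0.0912, within the spread between replicates. The valine share was mostly 1 locus. Summed over replicates, the copy in AC073283.4 held 1580 of the 1723 distinct reads on tRNA-Val-GTY copies. The family shares were not tested and depend on how many copies of each family the genome holds.

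Within amino acids the lower T-to-C share of the repeats remained in most families. The mean of the family medians was 54.8%, 58.8% and 73.2% on tRNA-like repeats in replicates 1, 2 and 3 and 84.2%, 75.2% and 87.3% on tRNA genes, over families with at least 3 clusters of each. The difference was -20.0 ± 8.20 percentage points (SD, n = 3), with the repeats lower in 12 of 13, 10 of 14 and 7 of 8 families (exact two-sided sign-flip permutation test, p = 0.25). Of the 8 families that could be compared in every replicate, the repeats were lower in all 3 replicates for glycine, glutamine, cysteine, glutamate, histidine and valine. The gap was widest for glutamate, at 39.8% ± 21.1 on the repeats and 89.0% ± 10.4 on tRNA genes. For cysteine it was 55.5% ± 20.3 on the repeats and 94.6% ± 2.72 on tRNA genes, and for glycine 75.6% ± 4.50 and 96.1% ± 4.004. For valine the medians lay within the spread between replicates, at 74.7% ± 15.8 on the repeats and 80.3% ± 13.7 on tRNA genes. Isoleucine was low in both sets, at 22.6% ± 7.86 on the repeats and 41.2% ± 29.1 on tRNA genes, and arginine copies were lower than arginine tRNA genes in 1 of 3 replicates. Alanine ran the other way where it could be compared, with 96.5% and 98.5% on the repeats in replicates 1 and 2 and 58.1% and 27.9% on tRNA genes. That rests on 3 and 4 clusters on the repeats, and the replicate 1 median is the value of the alternate-haplotype copy. Lysine was lower on the repeats in replicate 1, at 81.8% against 83.6%, and higher in replicate 2, at 100% against 81.6%.

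**Figure D3:**
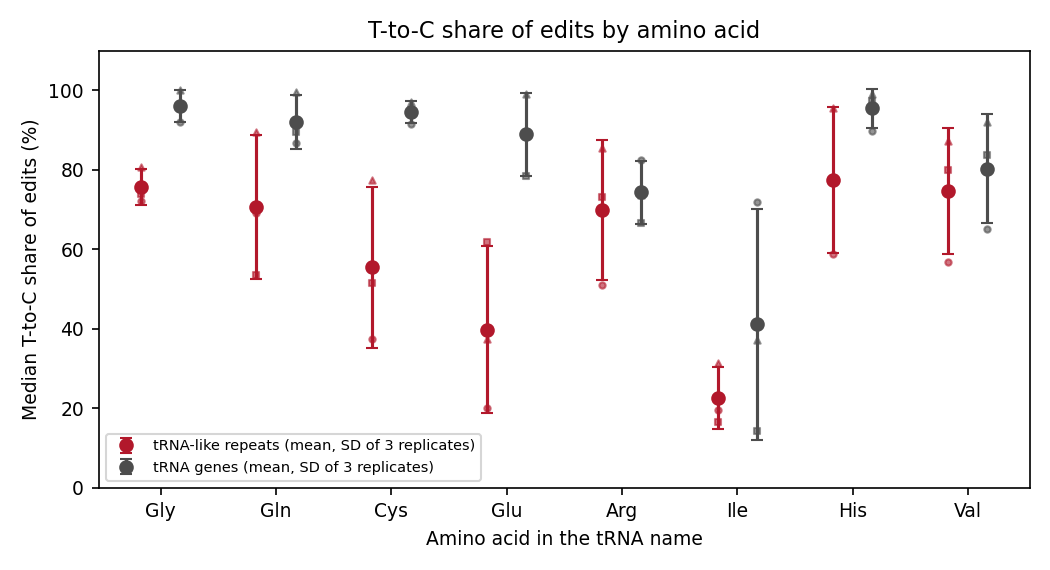
Median T-to-C share of edits over clusters, in percent, for tRNA-like repeats (left of each pair) and tRNA genes (right of each pair) of the 8 amino acids with at least 3 clusters of both kinds in each replicate. Large points and bars are the mean and SD of 3 replicates and small points the replicates; glutamate and cysteine show the widest gaps, and the SD bars overlap for glutamine, arginine, isoleucine, histidine and valine.

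By position, 51 of the 199 loci (25.6%) lay in an intron on the strand of the host gene, 66 (33.2%) lay antisense to a gene and 82 (41.2%) had no gene on either strand. No locus lay in an exon. Among clusters the intron share was 28.2% ± 2.11, the antisense share 31.1% ± 1.59 and the share outside genes 40.7% ± 2.61 (SD, n = 3). On tRNA genes these shares were 10.9% ± 0.502, 7.91% ± 0.660 and 74.5% ± 0.400. Within genes, the repeats showed little preference for the strand of the host: of clusters in introns or antisense to a gene, 44.9%, 48.8% and 49.0% were in introns on the host's strand in replicates 1, 2 and 3. For all other clusters that share was 79.6%, 83.8% and 83.7%. The difference was -34.8 ± 0.216 percentage points (SD, n = 3; exact two-sided sign-flip permutation test, p = 0.25), negative in 3 of 3 replicates. On tRNA genes it was 57.1%, 55.4% and 61.2%, nearer to the repeats than to other clusters.

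Copies in introns had the lowest T-to-C share on average. Their median share was 50.9%, 51.9% and 50% in replicates 1, 2 and 3. It was 50%, 53.1% and 85.4% for copies antisense to a gene, and 68.8%, 60.9% and 75.4% for copies with no gene on either strand. Intron copies were thus below copies outside genes in all 3 replicates, but not below antisense copies in replicate 1. Conversions per read had a median of 0.256 ± 0.0111 in introns, 0.459 ± 0.174 antisense to a gene and 0.415 ± 0.0387 outside genes (SD, n = 3).

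**Figure D4:**
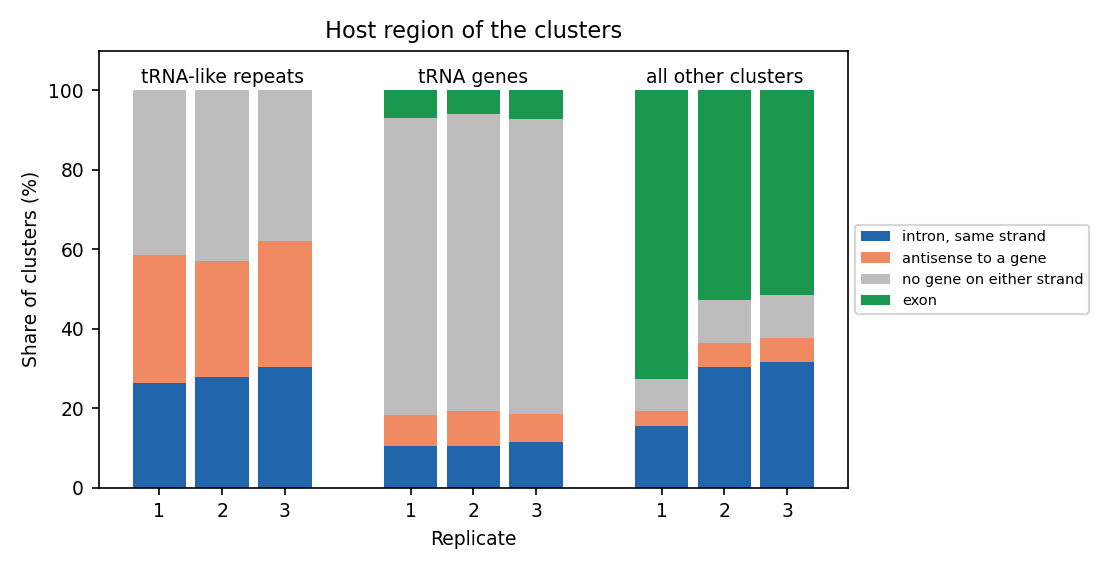
Stacked bars give the percent of clusters in an intron on the host's strand, antisense to a gene, outside any gene on either strand and in an exon, for tRNA-like repeats, tRNA genes and all other clusters in replicates 1, 2 and 3. The repeats divide between introns, antisense and outside genes with no exonic part, while tRNA genes lie mostly outside genes and other clusters mostly in exons.

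Crosslinked reads followed the strand of the tRNA copy. No cluster lay antisense to a tRNA-like repeat in any of the 4 lists. In replicates 1, 2 and 3, 1025, 2897 and 745 nuclear clusters lay antisense to some repeat, so that 0 clusters allows a share of up to 0.293%, 0.104% and 0.403% of them. On the sense strand of repeats, tRNA-like copies made up 8.37%, 4.76% and 7.67% of clusters. Each limit is 3 divided by the number of antisense clusters. These limits cover counting error only and treat clusters as independent, although clusters of 1 library share their source.

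Most hosts of intronic copies had no other crosslinked cluster. Of the 51 intronic loci, 46 lay in named genes, 48 genes in all since some loci lay in more than 1, and the rest lay in assembled transcripts without a gene name. No named gene held more than 1 such locus. Of these 48 genes, 29 had no other cluster in any replicate, among them CPXM2, AC073283.4, the presynaptic scaffold PCLO and the growth factor carrier IGFBP3. The other 19 had at least 1 further cluster, and 12 had 1 in an exon. The same share was not computed for hosts of other intron clusters, so these counts have no background. ERC1, a scaffold protein of presynaptic active zones, stood apart with 83 further clusters over the 3 replicates, of which 2 were exonic. CDK8 had 4, all exonic, LIMA1, an actin-binding protein, had 5, all exonic, and PARD3B had 3, none exonic. PCLO, IGFBP3, ERC1 and LIMA1 were chosen after their values had been seen.

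Of the 199 loci, 2 (1.01%) lay within 1000 nt of a listed tRNA gene cluster, 7 (3.52%) within 10000 nt and 10 (5.03%) within 100000 nt. The same shares were not computed for other clusters, so these counts have no background. A further repeat was named at 12 of the 199 loci, in most cases a LINE, as at the valine copy in AC073283.4.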

How the data were processed

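FLAG-DICER PAR-CLIP libraries from HEK293 cells, 3 replicates of 1 group with 2 sequencing runs each, were read from cluster lists. Bowtie2 2.1.0 and the build hg19 come from the submitters' processing notes. The program that made the clusters is named in the deposited files without a version. Results rest on the count of T-to-C conversions per cluster, deposited by the authors and not normalised. The deposited entropy score of each cluster was not used for any result. Per the file attributes each cluster has an estimated false discovery rate of 5%, replicate lists were filtered by length, and the series-wide list holds clusters with reads in 2 or 3 replicates and is not the sum of the replicate lists. The sources used here do not say how reads that match several copies were placed, so copies of 1 family may share reads.

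Members and tRNA genes were found by the deposited annotation, and clusters were merged into loci by at least 1 nt of overlap on 1 strand (Python 3.11.15, pandas 2.3.3, numpy 2.4.6). Widths, conversions per read, T-to-C conversions as a percent of edits and overlaps were computed per replicate, and differences were tested by exact sign-flip permutation over 3 replicates with Benjamini-Hochberg adjustment over 10 tests. The overlap and merging steps were checked on simulated data, and the permutation test on fixed values. Separate cultures are not named in the labels, so p-values measure only the spread between these libraries, which may be technical. Loci named were the 12 richest in conversions by the series-wide list, the 8 found in all 3 replicates with the most distinct reads, and the most frequent repeat name of each amino acid with at least 3 loci. One such locus is not reported here. Members and lists were chosen with earlier results of these data known. Alternatives left out each replicate, required 3 or more distinct reads, changed the overlap, used ratios of sums, dropped the first locus, dropped members with another repeat or kept primary chromosomes only. Sequences of the copies were not used here.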

Additional observations from a re-analysis of the deposited data

How the results depend on the processing

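Of 78 alternatives, 73 kept the direction of the mean and stayed within the limits set for a change. Those limits let large changes pass. The difference in conversions per read, -0.309, was -0.0382 as a ratio of sums, with the repeats higher in replicates 2 and 3. The share of conversions, 12.6%, became 5.30% when distinct reads were the weight. The T-to-C difference at 10 to 100 distinct reads also counted as kept, although replicate 3 went the other way. With 3 or more distinct reads required, tRNA-like repeats made up 3.87% of clusters (main value 1.24%). Their share of conversions, 12.6%, was 1.97% where the tRNA copy was the sole repeat and 2.00% without the valine copy in AC073283.4. That copy, which holds most conversions in replicates 2 and 3, also carries a LINE annotation and so left both sets. Loci with a cluster in all replicates used numbered 59, and between 63 and 104 with 1 replicate left out, since fewer lists had to match. The difference in T-to-C share reversed to 12.9 percentage points as a ratio of sums, and was -12.6 without the valine copy. Recurrence with 3 or more distinct reads exceeded that of other clusters by 22.5 points, against 35.0 over all clusters. In width, conversions per read and recurrence no alternative run changed the direction of the mean over replicates. Results on edits other than T-to-C, reads per distinct read, amino acids, pseudogenes and strand, and the alternatives on primary chromosomes, on 10 to 100 distinct reads and on sums without the valine copy, were chosen after seeing the data. No paired analysis was possible because the 3 replicates form 1 group, with no second group to pair them with. Differences between kinds of cluster were taken within each replicate. Clusters with few reads limit the values of single loci: 77, 76 and 36 clusters had fewer than 10 conversions.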
